A study of Mus musculus with 18 samples.

Results

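Rrm1, Rrm2, Tyms, Tk1, Dut and Dck, 6 genes that make or salvage deoxynucleotides, were followed through 18 lymphomas of triple knock-out mice. The members were taken by name, and every probe annotated to 1 of them alone was used, which gave 12 probes, of which 11 had enough values. All 6 members were among the 18147 genes that could be tested. The lymphomas lacked Atm (Atm-/-), a kinase that signals DNA breaks, mTerc (mTerc-/-), the RNA template of telomerase, and p53 (p53-/-), the transcription factor of the DNA damage response. Their RNA was compared on 2-colour Agilent arrays, with a dye swap, against thymus RNA of healthy 3-week-old p53 heterozygous mice. All 18 form 1 group. Without tumours of other genotypes or thymus of the knock-out mice, the deletions, the tumour and the cell content of the samples cannot be told apart.

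Deoxynucleotides are the building blocks of DNA, and cells keep little of them in store. In the de novo route, ribonucleotide reductase, made of the large subunit Rrm1 and the small subunit Rrm2, converts ribonucleotides to deoxyribonucleotides, Dut splits dUTP to dUMP and so keeps uracil out of DNA, and thymidylate synthase (Tyms) methylates dUMP to dTMP. In the salvage route, thymidine kinase 1 (Tk1) and deoxycytidine kinase (Dck) phosphorylate nucleosides taken up from outside. Most of these genes are known to be transcribed mainly in S phase, while Dck is known to be high in thymus and other lymphoid tissue.

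Values are log2 ratios of lymphoma over thymus, so that 1 is a doubling and 0 is no difference, and errors are SD over the 18 lymphomas. Lymphoma over thymus is the likely direction, because it places the deleted genes Atm (-0.65 ± 0.53, lower in 17 of 18) and Terc (-1.47 ± 0.58, lower in 18 of 18) below thymus. The labels give neither the direction nor the base of the deposited logarithm, so every direction and fold rests on these inferences. The 2 Terc probes differed, with means of -2.66 ± 1.08 and -0.27 ± 0.64. In the limma fit 10480 of 18147 genes differed from thymus after Benjamini-Hochberg adjustment, 57.8% in all, with 29.9% higher and 27.9% lower. The median gene had a mean of 0.05 and an SD of 0.53. Between 2.27% and 7.79% of probes had no value on an array. Whether each tumour came from its own mouse is not labelled, so the p-values reflect only how these samples scatter, and the spread of the reference is not in them. In bulk RNA, fewer cells of a type and less RNA per cell cannot be told apart.

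Lymphoma 14 stood apart and gave the lowest value of all 6 members. Its median correlation with the other lymphomas was 0.258, and those of lymphomas 7 and 12 were 0.143 and 0.288, against 0.537 to 0.655 for the remaining 15. In lymphoma 14 the mean of the 9 measured T lineage markers of 10 listed was -3.51, below the range of -1.87 to 0.45 in the others. The mean of the 6 fibroblast markers was 4.12 there, against -3.36 to 1.44, and the mean of the 9 measured macrophage markers of 12 listed was 3.05, against -3.26 to 1.38. Its mean of 24 DNA replication genes was -0.65, against -0.05 to 1.03. In lymphomas 12 and 7 the mean of 10 thymic epithelium markers was 0.64 and -1.16, the highest values, against a median of -3.87 over all 18. The mean of 6 neutrophil markers was -0.88 and -0.57 there, against a median of -4.51. The part of this cell content in the results was not tested, and results that rest on lymphoma 14 are given without that lymphoma.

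Short stretches upstream of 3 members are shown with matches to known binding motifs of S phase and housekeeping promoters, as background to the results that follow. Each is the 150 bases before the outermost start of the gene, from RefSeq on GRCm38.p6, in the direction of the gene. Capitals mark matches on either strand to an E2F motif (TTCCCGC or TTGGCGC or TTCGCGC or TTGCCGC), the CCAAT box (CCAAT) or the GC box (GGGCGG). The window of Rrm1 is at chr7:102441545-102441694 on the plus strand, that of Rrm2 at chr12:24708104-24708253 on the plus strand, and that of Dck at chr5:88764863-88765012 on the plus strand.
Rrm1: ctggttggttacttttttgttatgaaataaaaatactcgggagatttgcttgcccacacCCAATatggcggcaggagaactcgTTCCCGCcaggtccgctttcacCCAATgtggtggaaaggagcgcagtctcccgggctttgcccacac
Rrm2: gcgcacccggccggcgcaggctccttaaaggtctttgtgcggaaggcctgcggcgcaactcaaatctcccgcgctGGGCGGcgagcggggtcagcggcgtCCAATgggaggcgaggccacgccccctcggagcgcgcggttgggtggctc
Dck: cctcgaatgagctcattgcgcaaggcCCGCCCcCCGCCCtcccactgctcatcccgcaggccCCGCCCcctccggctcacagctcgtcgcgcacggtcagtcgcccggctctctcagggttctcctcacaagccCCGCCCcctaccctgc
The Rrm1 window held 1 E2F match and 2 CCAAT boxes. The Rrm2 window held 1 CCAAT box and 1 GC box. The Dck window held 4 GC boxes. Of the windows not shown, that of Tyms held 1 GC box and that of Tk1 held 0 matches. Of 22798 such mouse windows, 5.04% held an E2F match, 25.7% a CCAAT box and 25.7% a GC box, and no match says only that these letters are not in the window. A match was not tied to any value on the arrays.

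The 6 genes did not move together. Tk1 and Dut rose, Dck fell, and Rrm1, Rrm2 and Tyms did not pass the test, so 3 of 6 differed from thymus against 57.8% of all genes. Tk1 was above 0 and Dck below 0 in all 18 lymphomas. Among the 17001 genes with a value in every lymphoma, 4.92% were above 0 in all 18 and 3.94% were below 0 in all 18. Within lymphomas Tk1 had the highest ratio of the 6 in 15, Dut had it in lymphomas 1, 13 and 18, and Dck had the lowest ratio in 18 of 18.

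**Figure D1:**
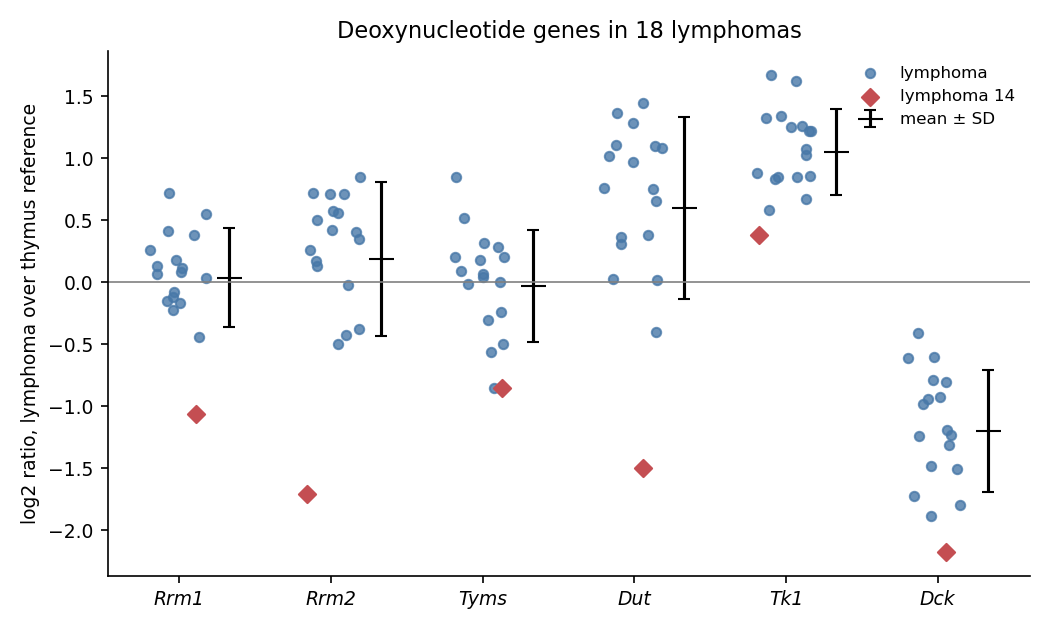
Log2 ratio of lymphoma over thymus (vertical axis) for the 6 genes, with 1 point per lymphoma and the mean ± SD over 18 beside them. The Tk1 points lie between 0.38 and 1.67 and the Dck points between -2.17 and -0.41, all on 1 side of 0, and lymphoma 14 (red diamond) is the lowest point of every gene.

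The subunits of ribonucleotide reductase stayed near the thymus level. Rrm1, which carries the catalytic and regulatory sites, ranged from -1.07 in lymphoma 14 through a median of 0.07 to 0.72 in lymphoma 13. It was above 0 in 11 of 18, with a mean of 0.04 ± 0.40 (limma adjusted p = 0.759). The values lay on both sides of 0, with lymphoma 14 well below the next lowest at -0.44.

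Rrm2, the subunit that supplies the radical and that limits the enzyme in cycling cells, ranged from -1.70 in lymphoma 14 through a median of 0.38 to 0.85 in lymphoma 6. Its mean was 0.19 ± 0.62, above 0 in 13 of 18 (limma adjusted p = 0.274). Lymphomas 3, 7, 14, 15 and 16 were the 5 below 0. Without lymphoma 14 the mean was 0.30 and passed the test (limma adjusted p = 0.0190), so the call on Rrm2 turned on that library. The difference between Rrm1 and Rrm2 was -0.15 ± 0.49 and did not pass (permutation test, adjusted p = 0.228). Rrm2b, the p53-inducible small subunit that serves resting cells, had a mean of 0.03 ± 0.36 (limma adjusted p = 0.811). Its 2 probes went opposite ways, at -0.35 ± 0.54 and 0.41 ± 0.32.

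Thymidylate synthase itself also stayed near thymus. Tyms ranged from -0.85 in lymphoma 14, with lymphoma 15 beside it at -0.85, through a median of 0.05 to 0.85 in lymphoma 4. It was above 0 in 10 of 18, and its mean was -0.03 ± 0.45 (limma adjusted p = 0.821). The sign of so small a mean changed with the scaling, to 0.0026 with arrays scaled to the same spread. Of its 3 probes, those with means of -0.08 ± 0.55 and -0.16 ± 0.55 followed each other across lymphomas (r = 0.996). The third, at 0.14 ± 0.36, correlated with them at only 0.599 and 0.591, and lay 1.35 above either in lymphoma 14. The pseudogene Tyms-ps, a near-identical copy with 1 probe, had a mean of 0.02 ± 0.55 and tracked Tyms (r = 0.97), so the reading of Tyms is uncertain. It followed the first 2 Tyms probes (r = 0.993 and 0.986) but the third only at 0.609. The third was above 0 in 14 of 18 and did not pass (limma adjusted p = 0.191). Results on Tyms given below use the mean of the 3 probes.

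Dut, the enzyme that removes dUTP and yields the substrate of Tyms, rose 1.51-fold. Its values ran from -1.50 in lymphoma 14 through a median of 0.76 to 1.44 in lymphoma 9, with lymphoma 3 the only other below 0, at -0.40. The mean was 0.60 ± 0.73, above 0 in 16 of 18 (limma adjusted p = 0.00450). Its 2 probes agreed within the gene (r = 0.991), with means of 0.71 ± 0.83 and 0.48 ± 0.64. Dut had the widest spread of the 6, larger than that of 70.7% of genes.

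Tk1, the S phase kinase of thymidine, rose 2.07-fold and was the most uniform of the 6. Its 1 probe ranged from 0.38 in lymphoma 14 through a median of 1.05 to 1.67 in lymphoma 10. The mean of 1.05 ± 0.35 (limma adjusted p = 1.19e-08) was higher than that of 96.3% of genes, and its SD was larger than that of only 14.98%. Every lymphoma was above thymus, with lymphoma 12 the second lowest at 0.58.

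Dck, which phosphorylates deoxycytidine, deoxyadenosine and deoxyguanosine, fell 2.30-fold. It ranged from -2.17 in lymphoma 14 through a median of -1.21 to -0.41 in lymphoma 2. The mean was -1.20 ± 0.49 (limma adjusted p = 6.04e-08), below that of most genes, since only 8.56% had a lower mean. All 3 of its probes were below 0 in 18 of 18 lymphomas, with means of -1.43 ± 0.66, -0.97 ± 0.47 and -1.20 ± 0.46. The last 2 followed each other (r = 0.967), and the first correlated with them at 0.689 and 0.715. Over the 6 members, 6 of 11 probes differed from thymus against 55.5% of all probes tested. These were 3 lower for Dck, and 1 higher for Tk1 and 2 for Dut.

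Most pairs of members differed in their ratio to thymus. Of 15 pairs, 12 differed within lymphomas (sign-flip permutation test, 100000 resamples, Benjamini-Hochberg over 15). How often other pairs of genes differ was not counted, so this count is not shown to be particular to these genes. The result for Tk1 and Dck follows from their signs, above and below 0 in 18 of 18. Only the 3 pairs among Rrm1, Rrm2 and Tyms did not pass, with adjusted p from 0.129 to 0.503. The kinases of the salvage route lay farthest apart. Tk1 exceeded Dck by 2.25 ± 0.56 in 18 of 18 lymphomas, by 1.18 at the least and 3.51 at the most (permutation test, adjusted p = 3.75e-05, the smallest given by these permutations being 2.00e-05 before adjustment). Tk1 exceeded Dut by 0.46 ± 0.63 in 15 of 18 (permutation test, adjusted p = 0.00541).

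Against the mean of other S phase genes, the 6 took different places. The 24 DNA replication genes had a mean ratio of 0.54, and 17 of them rose and 2 fell, against 29.9% and 27.9% of all genes. This comparison was added after the values were seen. Tk1 was 0.51 ± 0.38 above that mean in 16 of 18 lymphomas (permutation test, adjusted p = 1.80e-04). Rrm1 was 0.50 below it (SD 0.32), Rrm2 0.35 below (SD 0.39) and Tyms 0.57 below (SD 0.45), and each passed. Dck lay 1.74 ± 0.48 below in all 18. Dut, at 0.06 ± 0.59, did not differ from the mean in this test (permutation test, adjusted p = 0.680). The replication genes themselves had means from -0.41 to 1.08, and of the members only Dck lay outside that range. How many other genes differ from the replication mean was not counted, so passing does not set a member apart from single replication genes.

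Which members varied together across lymphomas was sensitive to lymphoma 14. Of 15 pairs, 4 correlated with an adjusted p below 0.05. The share of other gene pairs that correlate was not counted, so this count is not shown to be particular to these genes. Tyms and Dck were the closest pair by rank (r = 0.66, rho = 0.68, permutation test, adjusted p = 0.0423 and 0.0415). Rrm2 correlated with Dut (r = 0.68, rho = 0.35), with Rrm1 (r = 0.62, rho = 0.15) and with Dck (r = 0.57, rho = 0.35), each with an adjusted permutation p of 0.0477. Without the 2 lymphomas farthest from the median of the first gene the correlations were 0.55, 0.35, 0.20 and 0.28 in that order and none passed after adjustment. Without lymphoma 14 alone, 0 of 15 pairs passed, with coefficients of 0.57 for Tyms and Dck, 0.30 for Rrm2 and Dut, 0.21 for Rrm1 and Rrm2 and 0.35 for Rrm2 and Dck. The coefficient of Tyms and Dck thus changed little, and those of the 3 pairs with Rrm2 dropped.

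The mean of the DNA replication genes correlated with Rrm2 (r = 0.80, rho = 0.58, permutation test, adjusted p = 0.00582), Rrm1 (r = 0.67, rho = 0.29, adjusted p = 0.0201) and Dut (r = 0.59, rho = 0.27, adjusted p = 0.0411), 3 of 6. Without lymphomas 14 and 7 the coefficients were 0.38, -0.01 and -0.03 and none passed. By rank none passed in all 18, with the smallest adjusted p for Rrm2 (permutation test of rho, 0.0754). The mean of 19 mitosis genes correlated by r with 4 of 6, and with 0 without lymphoma 14. These were Rrm1 (r = 0.65, rho = 0.34), Rrm2 (r = 0.55, rho = 0.14), Tyms (r = 0.51, rho = 0.41) and Dck (r = 0.52, rho = 0.24). By rank none passed (permutation test of rho, adjusted p of 0.513 or more). The share of all genes that correlate with either mean was not counted.

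**Figure D2:**
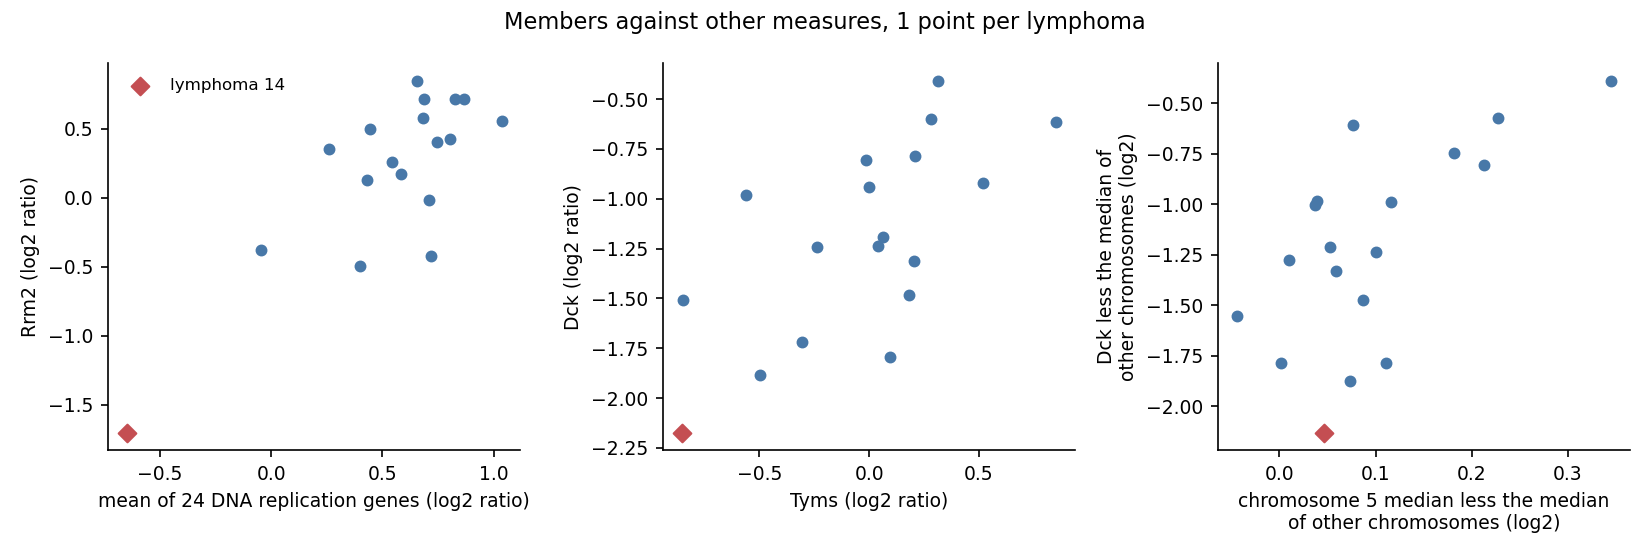
Points are lymphomas. The left panel plots Rrm2 against the mean of 24 DNA replication genes and the middle panel Dck against Tyms, all as log2 ratios, and the right panel plots Dck against the shift of chromosome 5, each less the median of the other chromosomes, in log2. Lymphoma 14 (red diamond) lies at the lower left in the first 2 panels, and lymphoma 2 has the highest chromosome 5 shift, 0.35.

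The genes whose ratios most resembled each member over 18 lymphomas, by Pearson's r among 17001 genes, were of several kinds. For Rrm1 they were Pcf11 (0.89), Pclaf (0.86), Tipin (0.85), Chaf1b (0.84) and Blm (0.84), of which Pclaf, Tipin, Chaf1b and Blm act at replication forks or on new DNA. For Rrm2 they were Fcho1 (0.91), Hmgb1 (0.88), Gfi1 (0.88), Mcm7 (0.87) and Tespa1 (0.87), which include the helicase subunit Mcm7 and the T cell genes Gfi1 and Tespa1. For Dut they were Sit1 (0.90), Ptma-ps2 (0.88), Cd24a (0.88), Galnt6 (0.85) and Aptx (0.84). For Tk1 they were Ino80e (0.84), Pitpnm2 (0.84), Mrpl54 (0.83), Efr3b (0.82) and Eif4ebp2 (0.81). For Tyms they were Tyms-ps (0.97), Sumo2 (0.84), Ppp4r3b (0.82), Slc5a6 (0.80) and Grpel1 (0.79). For Dck they were Utp3 (0.91), Fbxo3 (0.87), Cdc7 (0.86), Stap1 (0.86) and Cnot6l (0.85). All points share the reference and the 18 libraries. Without lymphoma 14 the coefficients of these genes were 0.65 to 0.87 for Rrm1, with Blm the lowest, 0.68 to 0.79 for Rrm2, 0.74 to 0.79 for Dut, 0.76 to 0.81 for Tk1, 0.73 to 0.98 for Tyms and 0.80 to 0.88 for Dck. The genes were picked by their r over the same lymphomas, so these coefficients are no separate support for the likeness.

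For Dck, 4 of those 5 genes (all but Fbxo3) lie on its own chromosome 5. Among the 100 genes most like Dck, 39 were on chromosome 5, and 32 of the 100 most like Tyms, which lies on the same chromosome, were there too, while chromosome 5 holds 6.17% of the genes placed. Without lymphoma 14 these counts were 45 and 30. For the other members the count was 15 for Rrm1 on chromosome 7 (8.31% of genes), 4 for Rrm2 on chromosome 12 (3.33%), 5 for Tk1 on chromosome 11 (8.21%) and 7 for Dut on chromosome 2 (8.03%).

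**Figure D3:**
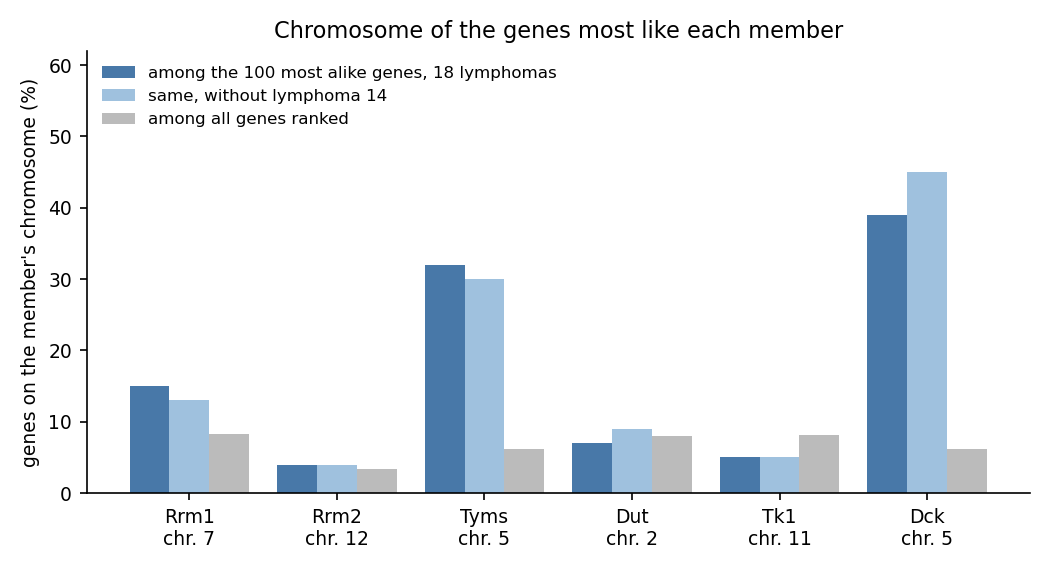
Bars give the percentage of genes on the member's own chromosome, among the 100 genes most correlated with it over 18 lymphomas, the same without lymphoma 14, and among all 16971 genes placed on a chromosome. Dck and Tyms, both on chromosome 5, show 39 and 32 against 6.17 for all genes, and the other 4 lie between 4 and 15.

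The shift of a whole chromosome in a lymphoma was then measured as its median ratio less the median of the other chromosomes, a measure added after that ranking was seen. For chromosome 5 it ran from -0.04 in lymphoma 15 through a median of 0.07 to 0.35 in lymphoma 2. Dck less the same median correlated with it (r = 0.65, rho = 0.59, permutation test over 6 members, adjusted p = 0.0179 and 0.0350), and so did Tyms (r = 0.59, rho = 0.65, adjusted p = 0.0302 and 0.0258). Without lymphomas 2 and 4 the coefficients were 0.44 and 0.48 and neither passed (adjusted p = 0.177 for both). The ranking and these tests use the same 18 lymphomas, so the p-values are no separate support for it. The same median is subtracted on both sides. Dck and Tyms were set against nearly the same chromosome 5 values, so they are not separate results. In the ranking and in this test Tyms is the mean of its probes. The probe that departs from the pseudogene Tyms-ps was not tested alone. Correlation of each member with the mean of the 10 measured genes on each side of it passed for 0 of 6 (permutation test, adjusted p from 0.638 to 0.856, with 0 of 6 at an unadjusted p below 0.05). For Dck this turned on single arrays, with r = 0.07 but rho = 0.43 (permutation test, adjusted p = 0.451). Without lymphomas 7 and 6 its r was 0.49 (permutation test, adjusted p = 0.201). With the median of the neighbours, Rrm1 had r = 0.51 (permutation test, adjusted p = 0.165).

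Around the 6 genes, 62 of 67 listed genes of nucleotide supply were measured, and 36 rose, 11 fell and 15 did not pass. Their median of gene means was 0.54, against 0.05 over all genes tested. Of all genes, 29.9% were higher and 27.9% lower, which are the shares to set beside each list count below. These lists were drawn with earlier results of these data known and are described by their counts.

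**Figure D4:**
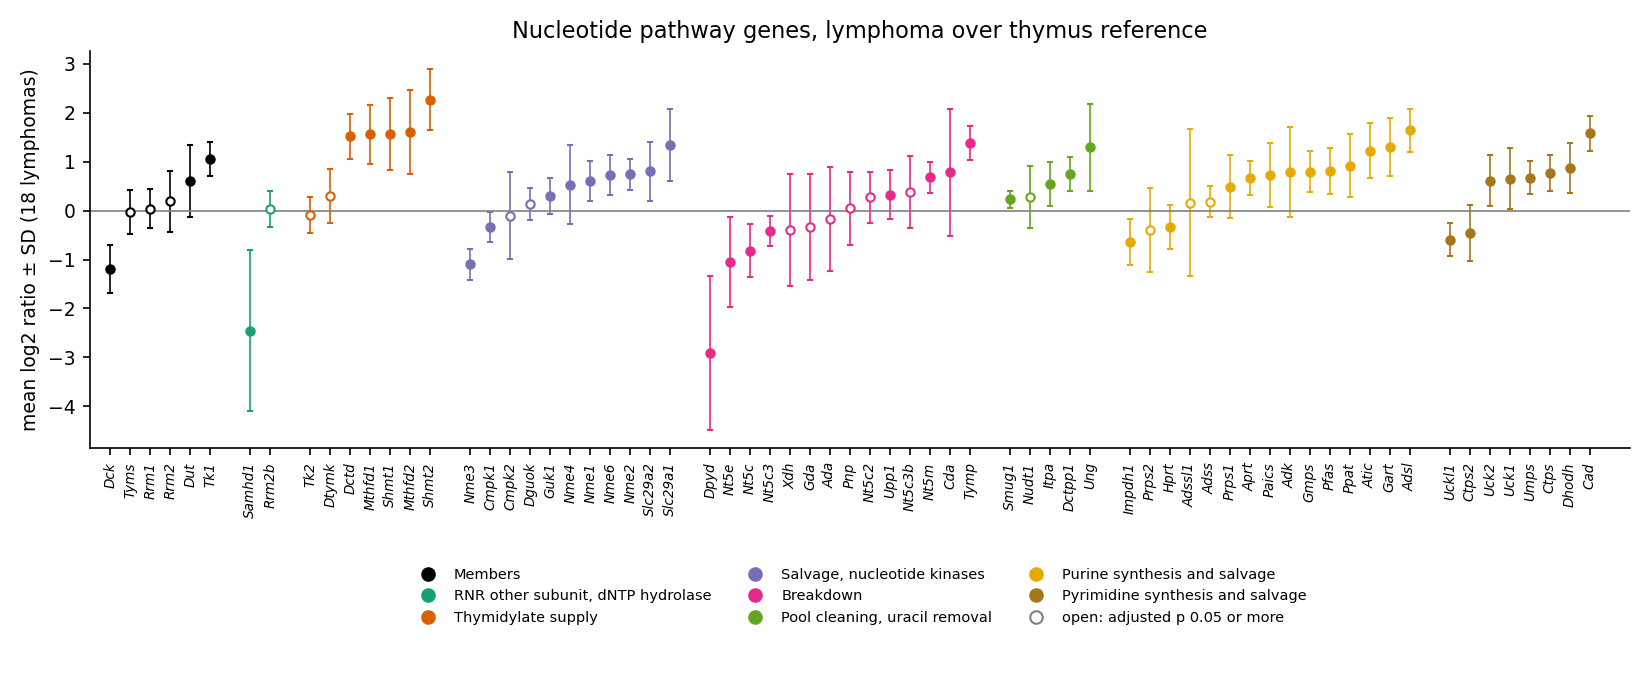
Mean log2 ratio ± SD over 18 lymphomas for the 6 members and 62 genes of nucleotide supply, ordered by mean within 7 lists, with open circles for an adjusted p of 0.05 or more. Thymidylate supply genes reach 2.27 for Shmt2 while Tyms lies at -0.03, and Samhd1 and Dpyd are the lowest at -2.45 and -2.90.

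Genes that feed thymidylate synthesis rose while Tyms did not pass. Of 7 measured, 5 rose and 0 fell, with a median of 1.55. Dctd, which makes dUMP from dCMP, ranged from 0.90 through a median of 1.48 to 2.79 and was above 0 in all 18 lymphomas (mean 1.52 ± 0.46, limma adjusted p = 2.31e-09). Folate genes that load or recycle the methyl donor rose too, with means of 2.27 for the mitochondrial Shmt2, 1.60 for Mthfd2, 1.56 for Shmt1 and 1.55 for Mthfd1. Dtymk, the kinase of dTMP, had a mean of 0.30 ± 0.55 just outside the threshold (limma adjusted p = 0.0503) and passed without lymphoma 14. Tk2, the mitochondrial thymidine kinase, lay at -0.10 ± 0.36 (limma adjusted p = 0.378).

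In the list of salvage and nucleotide kinase genes, those that rose were nucleoside transporters and nucleotide kinases. No deoxynucleoside kinase like Dck was among them. Of 11 measured, 7 rose and 2 fell, against 29.9% and 27.9% of all genes. Slc29a1, an equilibrative nucleoside transporter, ranged from -0.71 through 1.33 to 2.62, with a mean of 1.34 ± 0.74. The nucleoside diphosphate kinases Nme2 (0.74 ± 0.31) and Nme6 (0.73 ± 0.41) rose, and Nme3 fell, from -1.60 through -1.14 to -0.37 (mean -1.10 ± 0.32, limma adjusted p = 3.59e-09). Cmpk1, which phosphorylates dCMP and CMP, fell by 0.33 (SD 0.31). Dguok, the mitochondrial kinase of purine deoxynucleosides, named after its value was seen, lay at 0.14 ± 0.32 (limma adjusted p = 0.158).

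Genes that break down nucleosides or deoxynucleotides went both ways, with 4 of 14 up, 4 down and 6 that did not pass, shares close to the 29.9% and 27.9% of all genes. Tymp, which degrades thymidine, the substrate of Tk1, ranged from 0.40 through a median of 1.46 to 2.02, above thymus in all 18 (mean 1.38 ± 0.36, limma adjusted p = 8.19e-10). Nt5m, a mitochondrial deoxynucleotidase, was also above thymus in all 18 (0.68 ± 0.32). Nt5c, the cytosolic deoxynucleotidase, fell by 0.82 (SD 0.54). Dpyd, which degrades uracil and thymine, ranged from -4.99 through -3.21 to 0.86 (mean -2.90 ± 1.57, limma adjusted p = 7.91e-07). Ada and Pnp, purine enzymes linked to immune deficiency and named after their values were seen, lay at -0.18 ± 1.07 and 0.04 ± 0.74 and did not pass.

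Samhd1, the dNTP hydrolase that opposes ribonucleotide reductase, fell by 2.45 (SD 1.64). It ranged from -5.20 through -2.32 to 0.84 and was below thymus in 17 of 18 (limma adjusted p = 9.86e-06). Samhd1 and Dpyd are also known to be abundant in macrophages, whose marker mean ran from -3.26 to 3.05 over the 18 lymphomas. In the 7 lymphomas with a marker mean below -2, Samhd1 lay between -5.20 and -2.74 and Dpyd between -4.99 and -2.88. In the other 11, Samhd1 lay between -2.46 and 0.84 and Dpyd between -3.61 and 0.86. This cut was chosen after seeing the data, and the share of all genes that separate at it was not counted. The part of macrophage content in these values was not tested. Of pool cleaning and uracil removal genes, 4 of 5 rose, among them Ung, the uracil-DNA glycosylase (1.29 ± 0.88), Dctpp1 (0.76 ± 0.35), Itpa (0.55 ± 0.45) and Smug1 (0.23 ± 0.18), while Nudt1 lay at 0.27 ± 0.63 (limma adjusted p = 0.115) and passed without lymphoma 14 (0.35, adjusted p = 0.0270). With 1 probe per gene, Smug1 lay at 0.055 and did not pass (limma adjusted p = 0.529).

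In the routes that supply ribonucleotides to the reductase, most measured genes rose. Of 15 purine genes, 10 rose and 2 fell, with a median of 0.73. Adsl ranged from 0.97 through 1.74 to 2.16, above thymus in all 18 (mean 1.64 ± 0.45), and Gart (1.30 ± 0.59), Atic (1.23 ± 0.57) and Gmps (0.80 ± 0.41) rose, while Impdh1 fell by 0.64 (SD 0.47) and Hprt, of purine salvage, fell by 0.34 (SD 0.45). Of 8 pyrimidine genes, 6 rose and 2 fell. Cad, which starts pyrimidine synthesis, ranged from 0.89 through 1.63 to 2.12 (mean 1.58 ± 0.36, limma adjusted p = 1.62e-10). Dhodh (0.87 ± 0.51), Ctps (0.77 ± 0.37), Umps (0.67 ± 0.33), Uck1 (0.65 ± 0.63) and Uck2 (0.61 ± 0.52) rose, and Uckl1 (-0.59 ± 0.34) and Ctps2 (-0.45 ± 0.58) fell. Without the 7 lymphomas of lowest macrophage marker mean, a choice made after seeing the data, Uck1 and Uck2 were smaller, at 0.39 and 0.31, and no longer passed (limma adjusted p = 0.0878 and 0.0718). Smug1 kept a mean of 0.20 there and did not pass among the 11 that remained (limma adjusted p = 0.0705).

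Among the DNA replication genes Pola2 (0.87 ± 0.31), Mcm2 (1.04 ± 0.49), Pole (0.83 ± 0.40) and Mcm3 (0.99 ± 0.50) had the smallest adjusted p. Pcna, the sliding clamp, and Gmnn, the inhibitor of relicensing, fell, by 0.40 (SD 0.47) and 0.41 (SD 0.53). Of 19 mitosis genes, 8 rose and 4 fell, against 29.9% and 27.9% of all genes. Among them Aurka (0.79 ± 0.31), Bub1b (0.76 ± 0.48) and Plk1 (0.53 ± 0.19) were above thymus. Nusap1 (-0.98 ± 0.54), Ccnb2 (-0.39 ± 0.44), Mki67 (-0.32 ± 0.40) and Ccna2 (-0.20 ± 0.30) were below it. Without those 7 lymphomas Mki67 had a mean of -0.38, no smaller than with all 18, and did not pass (limma adjusted p = 0.0566), and Ccna2 had a mean of -0.12 (adjusted p = 0.345). In the fit to all 18, the proliferation marker Mki67 and Pcna were below thymus, and Tk1 and 17 of 24 replication genes were above it.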

How the data were processed

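The deposited table holds 1 column of log ratios for each of 18 lymphomas and 41175 probes. Per the labels, total RNA of each lymphoma and of a thymus reference was hybridised with a dye swap, and the labelling text mentions CGH arrays although the molecule is RNA. Spot reading, normalization and the averaging of dye swaps are not described by the labels or the file. Values as deposited were taken as log10 ratios, an inferred base, and multiplied by 3.32 to give log2 ratios. No scaling was added, and the deposited log10 columns have medians of -0.0114 to 0.0370.

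Probes were named through the platform annotation. Of 41175, 31700 carry 1 symbol, 47 several and 9428 none, and 31564 matched a RefSeq gene by Entrez identifier with 0 symbols changed. Probes with values on at least 14 of 18 arrays were kept (37295), which dropped 1 Rrm1 probe, and a gene is the mean of its probes. An intercept fit with eBayes in limma 3.58.1 (R 4.3.3) tested each mean against 0, with Benjamini-Hochberg adjustment over 18147 genes at 0.05. The reference counts as 1 control. Pairs and correlations used two-sided permutation tests with 100000 resamples in Python 3.11.15 with scipy 1.17.1. The fit was tested on simulated data. The number of arrays limits the precision. Alternatives were the probe filter, probes per gene, array scaling, array weights, the trend option, the log base and left-out lymphomas. Named genes are the members, all genes of lists with 8 or fewer measured, otherwise the 4 with the smallest adjusted p and those that passed against the majority, and the 5 most alike genes. Ada, Pnp and Dguok are outside this rule. The members, lists and tests were chosen with earlier results of these data known. The p53 transcript was not analysed here. Promoter windows are from RefSeq on GRCm38.p6. Tk1 and Tyms windows are not shown because the start in the promoter table and the outermost start of the gene differ. No window was available for Dut.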

Additional observations from a re-analysis of the deposited data

How the results depend on the processing

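Tk1 and Dut stayed higher and Dck lower, each past the threshold, under all 13 other settings and with each lymphoma left out in turn. Tk1 ranged from 0.32, with the deposited values taken as log2, to 1.15, Dut from 0.18 to 0.77 (largest limma adjusted p 0.0398) and Dck from -1.43 to -0.36. With each lymphoma left out the ranges were 1.01 to 1.09 for Tk1, 0.55 to 0.72 for Dut, -1.25 to -1.14 for Dck, -0.0025 to 0.10 for Rrm1, 0.15 to 0.30 for Rrm2 and -0.083 to 0.0173 for Tyms. Rrm2 passed without lymphoma 14 (0.30, limma adjusted p = 0.0190), without lymphomas 7, 12 and 14 (0.34, adjusted p = 0.0110) and with array weights (0.32, adjusted p = 0.0156). Means near 0 changed sign: Rrm1 to -0.0014 with median centring, and Tyms to 0.0026 with arrays scaled to the same spread, 0.041 with array weights, 0.0173 without lymphoma 14 and 0.0212 without lymphomas 7, 12 and 14. The count of 10480 genes ranged from 7306 to 11305 across other settings and from 10080 to 10912 with a lymphoma left out, the 47 nucleotide genes from 40 to 52 and from 46 to 52, and the 6 member probes from 6 to 7. The 4 correlating pairs became 0 with 1 probe per gene, quantile normalization, arrays scaled to the same spread, without lymphoma 14 and without lymphomas 7, 12 and 14, and 2 with median centring. The 4 correlations with mitosis became 1 with the median of probes or median centring and 0 without lymphoma 14 or lymphomas 7, 12 and 14, the 3 with replication became 0 in those last cases, and the 0 with neighbours became 1 without lymphomas 7, 12 and 14. The cause was not tested. Settings without lymphoma 14, without lymphomas 7, 12 and 14, and without the 7 of lowest macrophage marker mean were added after seeing the data. No paired analysis was possible because the lymphomas form 1 group. The members were measured on 18 arrays only, spot signal over background was not used here, and Tyms shares sequence with a pseudogene.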

Other observations

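The E2F and pocket protein genes, which control S phase transcription, went both ways in these lymphomas. Of 17 measured, 7 rose, 6 fell and 4 did not pass, where 29.9% of all genes were higher and 27.9% lower. Mybl2, a transcription factor of cycling cells, was above thymus in all 18 lymphomas (1.40 ± 0.47, limma adjusted p = 7.43e-09), and so was E2f1 (0.97 ± 0.52). E2f2 ranged from -3.56 through a median of -1.83 to -0.38 and was below thymus in all 18 (-1.77 ± 0.71, limma adjusted p = 3.35e-08). The pocket proteins Rbl2 (-1.05 ± 0.40) and Rb1 (-0.54 ± 0.52) fell, and Rbl1 fell by 0.26 (SD 0.45) near the threshold (limma adjusted p = 0.0471). Lin54 and Lin9, of a complex that can include a pocket protein, fell by 0.46 and 0.34. Rbl1 did not pass without lymphoma 14 (-0.20, limma adjusted p = 0.0853), nor Lin54 with 1 probe per gene (-0.13, adjusted p = 0.369).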
